A study of Mus musculus with 12 samples.

Results

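The SLC25 family holds the carriers that move nucleotides, phosphate, amino acids, carboxylates, cofactors and metals across the inner membrane of the mitochondrion. Its members were taken as every gene whose symbol is Slc25a followed by a number, which gave 46 of the 16411 genes in the table. Of these, 41 passed the filter on low counts and were tested among 13191 genes. The members were grouped by the substrate each is known to carry, into 16 for nucleotides, phosphate and cofactors, 14 for amino acids, carnitine and related molecules, 4 for carboxylates, 2 for metals, 3 that resemble the uncoupling proteins and 7 without a settled substrate or with another role.

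The RNA came from 6 tumors and 6 benign samples of the mammary gland of untreated female mice of the MMTV/neu ndl-YD5 line. All mice, benign and tumor alike, were heterozygous for a transgene on the FVB background, in which the MMTV promoter drives an activated HER2 that signals through its YD site in the mammary epithelium. Mice were followed from 10 weeks of age for about 10 further weeks. Benign tissue was mammary tissue with no visible tumor, it came from mice that carry the transgene too, and tumors and benign samples came from different mice.

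Most SLC25 proteins exchange a molecule of the matrix for one outside. The ADP/ATP and phosphate carriers feed ATP synthase. The citrate carrier supplies the cytosol with citrate for fatty acid synthesis, and the aspartate/glutamate and oxoglutarate/malate carriers form the malate-aspartate shuttle, which brings reducing power into the mitochondrion. In the mammary gland citrate export is known for feeding milk fat synthesis.

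Total counts per sample ranged from 5240853 to 8588567. Erbb2, the mouse gene for HER2, lay between 44.8 and 73.7 CPM (counts corrected for the sequencing depth of a sample) in benign tissue and between 1989 and 16634 CPM in tumors. The benign samples differed in tissue make-up. The 12 skeletal muscle markers summed to 5.62%, 3.59% and 9.25% of all counts in benign samples 3, 4 and 6, to at most 0.0370% in benign samples 1, 2 and 5, and to 0.000120 to 0.0153% in tumors. The 6 brown fat markers took 0.312% in benign sample 4, 0.0872% in benign sample 6 and at most 0.0194% in the other benign samples. The 8 adipocyte markers took 1.03 to 2.31% of the counts in benign tissue and 0.0206 to 0.0341% in tumors, and the 8 mammary epithelial markers 0.0938 to 0.248% and 0.262 to 0.437%. Results are therefore given also without benign samples 3, 4 and 6, a choice made after seeing the data.

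The promoters of 3 members are shown because these genes carry the largest rise, the largest fall and the change in the most abundant carboxylate carrier of benign tissue. Each is the 250 bases before the RefSeq start of the gene (assembly GRCm38.p6), 5′ to 3′ on the strand of the gene. None of the 3 stretches overlaps an annotated exon of GENCODE M21. Slc25a34 lies at chr4:141623835-141624084 on the minus strand, Slc25a48 at chr13:56438105-56438354 on the plus strand and Slc25a1 at chr16:17928220-17928469 on the minus strand. Capitals mark matches, on either strand, to the CCAAT box (ATTGG when read on the opposite strand), to the GC box, to the E-box and to a core bound by nuclear receptors, each spelled out after the sequences.
Slc25a34: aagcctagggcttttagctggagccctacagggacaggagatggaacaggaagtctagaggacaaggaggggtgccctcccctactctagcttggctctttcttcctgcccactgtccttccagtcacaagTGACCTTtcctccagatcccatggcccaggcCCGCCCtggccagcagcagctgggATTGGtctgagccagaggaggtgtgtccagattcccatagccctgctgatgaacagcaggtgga
Slc25a48: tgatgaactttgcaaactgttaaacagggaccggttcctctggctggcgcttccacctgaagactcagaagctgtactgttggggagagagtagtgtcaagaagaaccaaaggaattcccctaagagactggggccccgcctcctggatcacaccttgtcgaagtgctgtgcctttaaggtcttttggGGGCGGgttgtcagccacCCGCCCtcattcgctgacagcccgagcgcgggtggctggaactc
Slc25a1: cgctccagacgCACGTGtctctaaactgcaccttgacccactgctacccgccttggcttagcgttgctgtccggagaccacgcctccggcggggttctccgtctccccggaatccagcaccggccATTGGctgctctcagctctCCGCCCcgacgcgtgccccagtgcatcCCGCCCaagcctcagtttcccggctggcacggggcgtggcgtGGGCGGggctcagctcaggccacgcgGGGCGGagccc
Of the 46 members, 35 had an entry in the RefSeq promoter table of 27025 genes. The GC box GGGCGG occurred in 71.4% of the SLC25 promoters and in 35.4% of all promoters of this length. The CCAAT box occurred in 51.4% and 37.5%, the E-box CACGTG in 20.0% and 6.86%, the ETS core CCGGAAG in 14.3% and 7.83%, and TATAAA in 5.71% and 14.3%. Each motif was searched on both strands, and none of them contains another. The nuclear receptor core AAGGTCA was in 2.86% of the SLC25 promoters and in 4.70% of all promoters. Slc25a34 was the only one of the 35 members with an entry that held it in this window. Members without an entry were not searched. A match describes these letters and was not tested as a site.

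More SLC25 genes were lower than higher in tumors, and Slc25a34 rose far more than the other members. Of the 41 genes tested, 8 were higher in tumors, 20 were lower and 13 were not called (edgeR's quasi-likelihood test, two-sided, Benjamini-Hochberg adjusted p under 0.1 over all 13191 genes). Over all genes tested, 28.2% were called higher and 34.8% lower. The median log2 fold change was -0.29 for the SLC25 genes and -0.06 for all genes. In 2 members all 6 tumors lay above all 6 benign samples and in 13 all lay below, against 14.7% and 21.2% of all genes. In bulk tissue, fewer cells of a type and less RNA per cell cannot be told apart. Without benign samples 3, 4 and 6, 11 members were higher and 16 lower, with 26.7% and 28.7% of the 13604 genes then tested, and the medians were -0.25 and 0.00. In that fit 23 of the 28 calls were kept, 5 were lost and 4 were added, all 4 of them higher. With skeletal muscle and brown fat marker scores as covariates, 8 members were lower and 7 higher. No share of all genes is given for that fit.

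**Figure D1:**
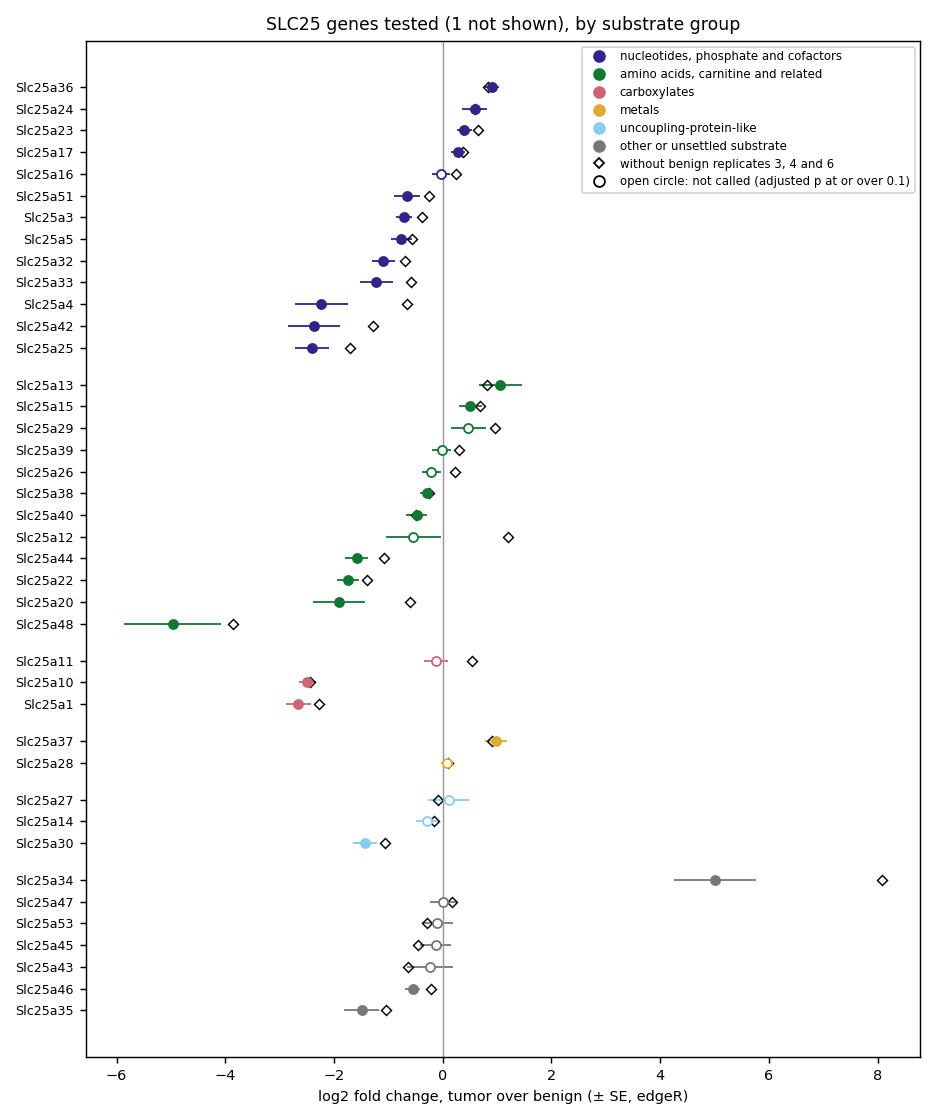
Log2 fold change, tumor over benign, of the SLC25 genes tested, ordered within substrate groups, with 1 tested gene not shown. Circles show the fit on all samples with its standard error, open circles genes not called, and diamonds the fit without benign samples 3, 4 and 6, which for Slc25a12 moves from -0.54 to 1.20 and for Slc25a34 from 5.01 to 8.09.

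The summed level of all SLC25 genes was 3141 to 6238 CPM in benign tissue (median 3914) and 2317 to 2873 CPM in tumors (median 2449). The highest sums were in benign samples 4, 6 and 3, the samples with skeletal muscle markers, and no tumor reached the lowest benign sample. The 5 members not tested were at the edge of detection, with at most 4 counts in any sample for Slc25a2, Slc25a21, Slc25a31 and Slc25a41 and at most 16 for Slc25a18.

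The ADP/ATP carriers are the main exchangers of the inner membrane. Slc25a4, the form of heart and skeletal muscle, had 213, 574 and 1538 CPM as its lowest, median and highest benign values and 122, 136 and 189 CPM in tumors. The groups did not overlap, but the benign samples split, with 213, 228 and 269 CPM in samples 1, 2 and 5 and 878 to 1538 CPM in samples 3, 4 and 6. Slc25a4 had a log2 fold change of -2.23 (SE 0.48, adjusted p = 0.0015 by edgeR), and of -0.65 (adjusted p = 0.0087) without those 3 samples. Slc25a5, the form of most dividing cells, had 289, 382 and 466 CPM in benign tissue and 159, 203 and 306 CPM in tumors. It fell by 0.76 (SE 0.20, adjusted p = 0.0056), with tumor samples 1 and 5 at 306 CPM inside the benign range. Slc25a3, which brings in phosphate for ATP synthase and copper for cytochrome oxidase, had 454, 554 and 718 CPM in benign tissue and 313, 330.5 and 396 CPM in tumors. All tumors lay below all benign samples, and the log2 fold change was -0.71 (SE 0.15, adjusted p = 0.0011), or -0.39 (adjusted p = 0.02) without benign samples 3, 4 and 6. The brown fat markers took 0.00445 to 0.312% of counts in benign tissue and 0.000662 to 0.00251% in tumors, while the skeletal muscle sums overlapped. A fit with scores of these markers as covariates therefore cannot fully separate them from the group. With both scores as covariates, the calls of Slc25a4, Slc25a5 and Slc25a3 were lost. Slc25a4 then gave -0.44 (adjusted p = 0.26 by edgeR), Slc25a5 -0.48 (adjusted p = 0.22) and Slc25a3 -0.32 (adjusted p = 0.13). Slc25a31, the germ cell form, stayed at or below 3 counts in every sample.

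The 3 calcium-regulated ATP-Mg/phosphate carriers, which set the adenine nucleotide content of the matrix, went different ways. Slc25a25 had 41.7, 56.3 and 129.6 CPM in benign tissue and 8.12, 12.4 and 17.9 CPM in tumors, with no overlap. The log2 fold change was -2.41 (SE 0.31, adjusted p = 2.7e-05 by edgeR), and -1.70 without benign samples 3, 4 and 6. Slc25a24 had 25.2, 28.5 and 38.0 CPM in benign tissue and 24.8, 42.5 and 68.4 CPM in tumors. Tumor sample 1, at 24.8 CPM, lay below every benign sample, and the tumor samples spread more widely than the benign ones. Slc25a24 rose by 0.59 (SE 0.23, adjusted p = 0.043), a call lost without benign samples 3, 4 and 6 (0.59, adjusted p = 0.15). Slc25a23 had 98.1, 123 and 168 CPM in benign tissue and 151, 173 and 202 CPM in tumors, and rose by 0.40 (SE 0.14, adjusted p = 0.028), with overlap of the groups.

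The pyrimidine nucleotide carriers Slc25a33 and Slc25a36, which supply the matrix with the building blocks of mitochondrial DNA and RNA, moved in opposite directions. Slc25a36 had 63.1, 82.0 and 104 CPM in benign tissue and 138, 154 and 175 CPM in tumors. Every tumor lay above every benign sample, and the rise was 0.91 (SE 0.13, adjusted p = 7.3e-05 by edgeR) with all samples and 0.83 without benign samples 3, 4 and 6. Slc25a33 had 11, 14.3 and 32.6 CPM in benign tissue and 5.60, 8.12 and 12 CPM in tumors. The log2 fold change was -1.22 (SE 0.31, adjusted p = 0.0046), or -0.58 (adjusted p = 0.083) without benign samples 3, 4 and 6, and only tumor sample 4 reached into the benign range.

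Among the carriers of cofactors, Slc25a42, the coenzyme A carrier, fell from 88.4 ± 73.8 to 17.1 ± 7.13 CPM (mean ± SD, n = 6 per group), a log2 change of -2.37 (adjusted p = 9.9e-04), with benign samples 4 and 6 at 220.4 and 131 CPM, and a change of -1.28 (adjusted p = 0.0064) without benign samples 3, 4 and 6. Slc25a32, a carrier of folate and FAD, fell from 47.3 ± 13.9 to 22.1 ± 5.66 CPM (-1.09, adjusted p = 7.4e-04). Slc25a51, the NAD carrier, fell from 191 ± 78.6 to 121 ± 26.2 CPM (-0.66, adjusted p = 0.033), a call lost without benign samples 3, 4 and 6 (-0.25, adjusted p = 0.34). The peroxisomal carrier Slc25a17 rose from 50.7 ± 9.71 to 61.6 ± 7.0 CPM (0.28, adjusted p = 0.087), and lost its call without benign sample 3 (adjusted p = 0.109) or benign sample 6 (adjusted p = 0.17). Slc25a16, a proposed coenzyme A carrier, was not called. In all, 4 of the 14 tested members of the group that carries nucleotides, phosphate and cofactors rose and 9 fell, with a median log2 fold change of -0.74. Of all genes tested, 28.2% rose and 34.8% fell, with a median of -0.06.

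Of the 3 carboxylate carriers tested, the citrate and dicarboxylate carriers fell and the oxoglutarate/malate carrier was not called. Slc25a1, the citrate carrier, had 289.6, 336 and 767 CPM in benign tissue and 59.5, 62.3 and 72.2 CPM in tumors. Benign sample 4 stood at 767 CPM and the other 5 between 289.6 and 382 CPM, and all tumors lay below all benign samples. The log2 fold change was -2.66 (SE 0.23, adjusted p = 8.1e-07 by edgeR), and -2.28 without benign samples 3, 4 and 6. Slc25a10, which exchanges malate and succinate for phosphate, had 275, 307 and 353 CPM in benign tissue and 35.2, 54.9 and 70.2 CPM in tumors. Its benign samples did not follow the muscle markers, and it changed by -2.49 (SE 0.15, adjusted p = 3.4e-08) with all samples and by -2.44 without benign samples 3, 4 and 6. Slc25a11, the oxoglutarate/malate carrier, had 86.5, 128 and 199.7 CPM in benign tissue and 108, 125 and 151 CPM in tumors. Tumors lay between the benign samples, above samples 1, 2 and 5 (86.5 to 93.6 CPM) and, for every tumor, below samples 3, 4 and 6 (162 to 199.7 CPM). It was not called with all samples (-0.12, SE 0.22, adjusted p = 0.68) and was higher in tumors without those 3 samples (0.53, adjusted p = 0.0048). Slc25a21, a carrier of oxodicarboxylates, had at most 4 counts in a benign sample and 1 in a tumor.

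**Figure D2:**
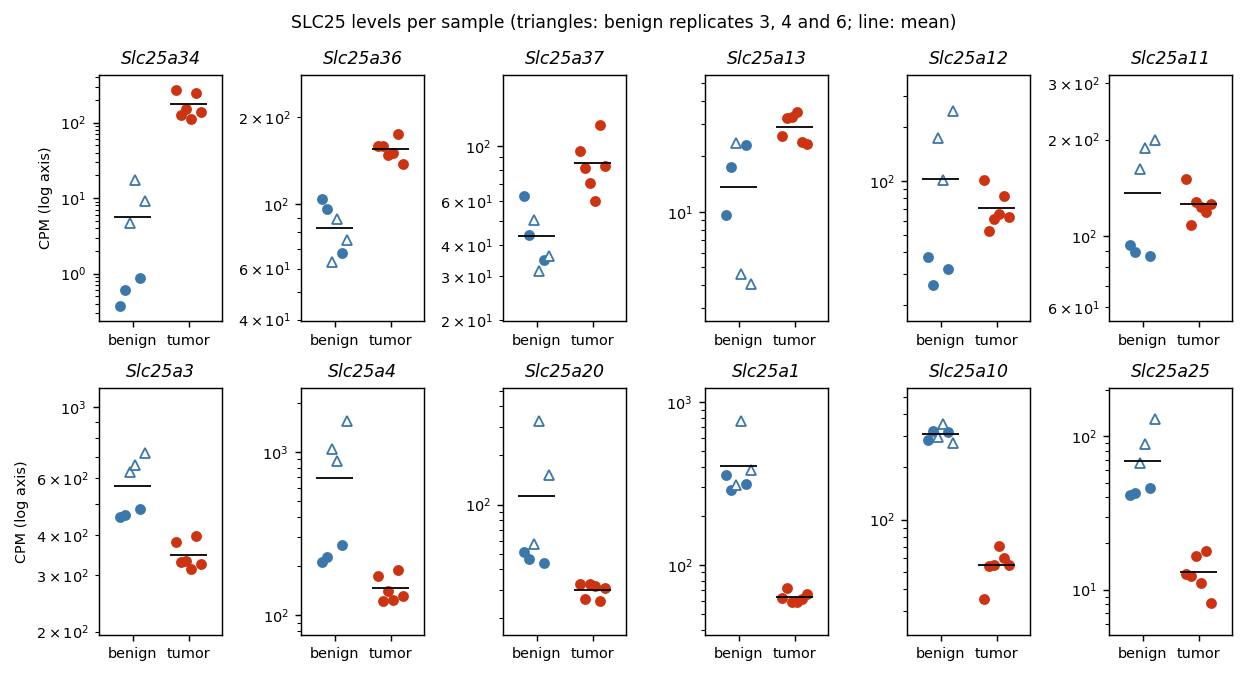
Levels of 12 SLC25 genes in each sample, in CPM on a log axis that differs between panels. Points are samples, triangles the benign samples 3, 4 and 6, and lines the group means. Slc25a34 lies between 0.371 and 17.6 CPM in benign tissue and between 111 and 271 CPM in tumors. Slc25a10 is tight in benign tissue (275 to 353 CPM) and runs from 35.2 to 70.2 CPM in tumors. The triangles of Slc25a4, Slc25a11 and Slc25a12 stand above the other benign samples.

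Among the amino acid carriers, the aspartate/glutamate exchangers of the malate-aspartate shuttle differed from each other. Slc25a12, the form of muscle and brain, had 26.0, 69.2 and 248 CPM in benign tissue and 52.4, 64.0 and 101 CPM in tumors. Benign samples 1, 2 and 5 lay between 26.0 and 37.4 CPM, below all tumors, and samples 3, 4 and 6 at 175, 101 and 248 CPM, at or above the highest tumor. Slc25a12 was not called (-0.54, SE 0.51, adjusted p = 0.38 by edgeR) and was higher in tumors without benign samples 3, 4 and 6 (1.20, adjusted p = 0.0014). Slc25a13, the form of liver and most other tissues, had 4.08, 13.5 and 23.5 CPM in benign tissue and 23.2, 29.0 and 34.6 CPM in tumors. The ranges met only at tumor sample 6 and benign sample 3, and the lowest benign values were in samples 6 and 4. Slc25a13 rose by 1.06 (SE 0.39, adjusted p = 0.035) and by 0.81 (adjusted p = 0.03) without benign samples 3, 4 and 6, and gave -0.18 (adjusted p = 0.74) with the skeletal muscle and brown fat scores as covariates.

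The glutamate carrier Slc25a22 had 52.1, 74.0 and 129 CPM in benign tissue and 18, 25.3 and 28.2 CPM in tumors. The groups did not overlap, and it fell by 1.74 (SE 0.20, adjusted p = 1.2e-05 by edgeR). Its partner Slc25a18 had 0 to 2 counts in benign samples and 2, 5, 6, 16, 2 and 10 counts in tumor samples 1 to 6, too few to be tested. Slc25a44, the carrier of branched-chain amino acids, fell from 98.7 ± 37.7 to 33.1 ± 3.74 CPM without overlap (-1.58, adjusted p = 3.9e-05). Slc25a15, the ornithine carrier of the urea cycle, rose from 17.7 ± 4.0 to 25.3 ± 7.97 CPM (0.51, adjusted p = 0.053). Slc25a38, which brings in glycine for heme synthesis, was lower by a narrow margin (-0.29, adjusted p = 0.067) and was no longer called in 8 of 12 fits with a sample left out. Slc25a26, the carrier of S-adenosylmethionine, and Slc25a29, a carrier of basic amino acids, were not called, although Slc25a29 was called higher without tumor sample 5 (0.71, adjusted p = 0.041) and without benign samples 3, 4 and 6 (0.96, adjusted p = 0.073).

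Slc25a48, a choline carrier, showed the largest fitted fall. It had 3.10, 6.41 and 23.5 CPM in benign tissue, with the highest values in samples 4 and 6, and 0, 0.128 and 1.35 CPM in tumors. Tumor samples 2, 3 and 6 held no count, and tumor sample 4 had 10 counts against 26 to 132 counts in the benign samples. The log2 fold change was -4.97 (SE 0.89, adjusted p = 3.7e-04 by edgeR), -6.32 without tumor sample 4 and -3.85 (adjusted p = 0.0067) without benign samples 3, 4 and 6.

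Slc25a20, the carnitine/acylcarnitine carrier that admits fatty acids for oxidation, had 44.0, 54.1 and 325 CPM in benign tissue and 25.4, 31.2 and 32.7 CPM in tumors. Benign samples 4 and 6, those with the most brown fat markers, stood at 325 and 151 CPM, and the other 4 between 44.0 and 57.3 CPM. All tumors lay below all benign samples. The log2 fold change of -1.91 (SE 0.48, adjusted p = 0.0046 by edgeR) was -1.22 without benign sample 4 and -0.61 (adjusted p = 0.0026) without benign samples 3, 4 and 6, and was 0.37 (adjusted p = 0.33) with the 2 marker scores as covariates.

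The glutathione carriers Slc25a39 and Slc25a40 are close relatives. Slc25a39 had 147, 188 and 346 CPM in benign tissue and 187, 201 and 219.7 CPM in tumors, with only benign sample 4 above the tumors, and was not called (-0.02, SE 0.18, adjusted p = 0.92 by edgeR). Without benign samples 3, 4 and 6 it was higher in tumors (0.30, adjusted p = 0.059). Slc25a40 had 10.8, 13.5 and 18.2 CPM in benign tissue and 8.12, 8.53 and 13.5 CPM in tumors, with tumor samples 1 and 5 inside the benign range. It fell by 0.48 (SE 0.19, adjusted p = 0.049), a call lost without benign samples 3, 4 and 6 (adjusted p = 0.107) and in 6 of 12 fits with a sample left out. Over the whole group of amino acid and related carriers, 2 of 12 tested members rose and 6 fell, with a median of -0.38. Of all genes tested, 28.2% rose and 34.8% fell. Without benign samples 3, 4 and 6 the counts were 5 and 4, against 26.7% and 28.7% of all genes then tested.

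The mitoferrins bring iron into the mitochondrion for heme and iron-sulfur clusters. Slc25a37, the mitoferrin known from red cell precursors, had 31.5, 39.9 and 63.0 CPM in benign tissue and 59.9, 82.3 and 121 CPM in tumors. Only tumor sample 4 lay within the benign range. The rise was 0.98 (SE 0.20, adjusted p = 0.001 by edgeR), while the erythroid markers Hba-a1, Hbb-bt and Alas2 fell, with log2 fold changes of -2.55, -2.27 and -1.58. With the skeletal muscle and brown fat scores as covariates, Slc25a37 gave 0.75 and was not called (adjusted p = 0.11 by edgeR). Slc25a28, the mitoferrin of other cells, had 49.0, 53.3 and 56.3 CPM in benign tissue and 44.8, 55.7 and 69.4 CPM in tumors and was not called (0.08, SE 0.11, adjusted p = 0.56).

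Of the 3 members that resemble uncoupling proteins, Slc25a30 fell from 36.6 ± 11.4 to 13.5 ± 3.02 CPM without overlap (-1.43, adjusted p = 1.1e-04 by edgeR). Slc25a14 (-0.29, adjusted p = 0.27) and Slc25a27 (0.11, adjusted p = 0.82) were not called, and tumor sample 5 stood at 25.4 CPM of Slc25a27 against 4.72 to 8.53 CPM in the other tumors. The uncoupling proteins belong to the same family under other symbols. Ucp1, the uncoupler of brown fat, fell by 7.91 (adjusted p = 0.0053), and was not called without benign samples 3, 4 and 6 (-1.88, adjusted p = 0.39). Ucp3 fell from 55.1 ± 33.2 to 0.0868 ± 0.0690 CPM (-9.05, adjusted p = 8.6e-08, and -8.06 without those samples). All its tumor values (0 to 0.156 CPM) lay under the floor of 0.411 CPM, so the size of this fall is uncertain. Ucp2, the widely expressed form, was not called (0.28, adjusted p = 0.18). The outer membrane relatives Mtch1 (-0.58, adjusted p = 9.9e-04) and Mtch2 (-0.74, adjusted p = 0.012) fell, and the call of Mtch2 was lost without benign samples 3, 4 and 6 (-0.22, adjusted p = 0.16).

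Slc25a34, whose substrate is unsettled, rose more than any other SLC25 gene. Its lowest, median and highest values were 0.371, 2.75 and 17.6 CPM in benign tissue and 111, 145 and 271 CPM in tumors. Benign samples 1, 2 and 5 lay below 1 CPM, with 2, 5 and 7 counts, samples 3, 4 and 6 at 4.62, 17.6 and 9.23 CPM, and the lowest tumor was far above them all. The log2 fold change was 5.01 (SE 0.76, adjusted p = 1.0e-04 by edgeR), a ratio of means of 31.3, and was 8.09 (adjusted p = 1.5e-06) without benign samples 3, 4 and 6. Leaving out benign sample 4 alone gave 5.83. The closest relative by number, Slc25a35, fell from 63.1 ± 31.2 to 22.4 ± 8.02 CPM (-1.49, adjusted p = 0.0014). Of its exons, 31.3% overlap Rangrf on the opposite strand, and the strand setting of the counting is not given in the sources used here, so reads of the 2 genes may not be separated. Slc25a46, an outer membrane protein of mitochondrial dynamics, fell by 0.55 (adjusted p = 0.006), a call lost without benign samples 3, 4 and 6 (-0.22, adjusted p = 0.12). Slc25a43, Slc25a45, Slc25a47 and Slc25a53 were not called, with log2 fold changes between -0.23 and 0.00.

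Slc25a34 lies on the minus strand of chromosome 4, from 141618824 to 141623821 (GRCm38, GENCODE M21). The next gene downstream on the same strand, Tmem82, a membrane protein gene, begins past a gap of 190 bases. Tmem82 had 0.874 to 1.78 CPM in benign tissue and 47.9 to 133 CPM in tumors, a rise of 6.21 on the log2 scale (adjusted p = 2.7e-08 by edgeR). Fblim1, a gene of cell-matrix junctions 12727 bases from Slc25a34, rose from 41.5 ± 17.4 to 855 ± 161 CPM (4.36, adjusted p = 1.2e-07). On the other side Plekhm2, 1912 bases away, was not called (-0.11, adjusted p = 0.59), and farther out Ddi2 rose by 1.33 and Rsc1a1, which lies within the span of Ddi2, by 3.19 (adjusted p = 0.035), while Spen, past Fblim1, was not called (0.04, adjusted p = 0.85). Of these 7 genes, the 3 with the largest rises lay next to each other. Reads that run from one gene into the next were not tested.

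**Figure D3:**
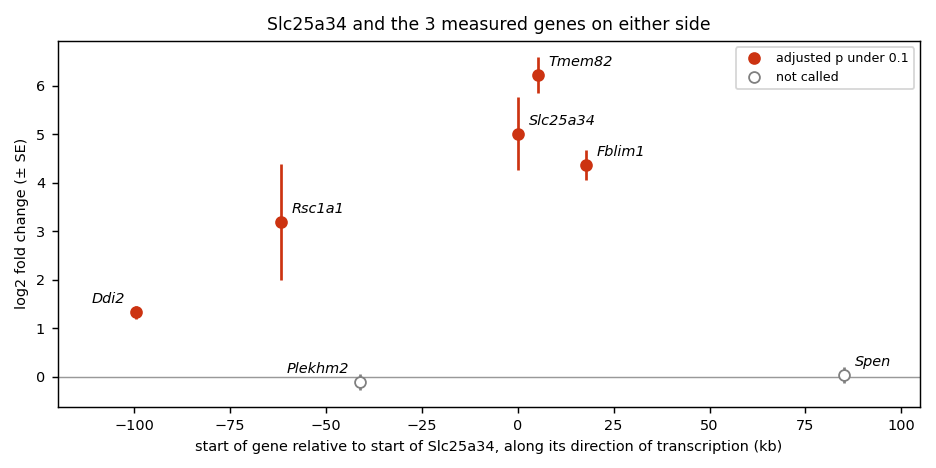
Log2 fold change with its standard error of Slc25a34 and the 3 measured genes on either side, against the distance in kilobases of each start from that of Slc25a34 along its direction of transcription. Tmem82 (6.21), Slc25a34 (5.01) and Fblim1 (4.36) stand together above the flanking Plekhm2 (-0.11) and Spen (0.04).

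Genes that carry the same substrate were compared as a ratio within each sample, which does not depend on scaling between libraries. The 8 pairs compared were chosen with earlier results of these data known. They do not hold every pair with a shared substrate, and Slc25a23 with Slc25a25 was left out, for example. Each ratio was tested by an exact two-sided permutation test over the 924 regroupings of 6 samples against 6. The smallest p of this test is 0.00216, and p was adjusted over the 8 pairs. The ratio passed in 4 pairs. The log2 ratio of Slc25a33 to Slc25a36 was -2.21 ± 0.70 in benign tissue and -4.23 ± 0.36 in tumors (SD, n = 6 per group, exact p = 0.00216, adjusted p = 0.0058), so the pyrimidine carriers shifted toward Slc25a36 in all 6 tumors. The log2 ratio of Slc25a24 to Slc25a25 was -1.08 ± 0.68 in benign tissue and 1.73 ± 0.54 in tumors (exact p = 0.00216, adjusted p = 0.0058), a change of sign without overlap. The ratio of Slc25a37 to Slc25a28 rose by 0.92, from -0.33 ± 0.34 to 0.59 ± 0.32 (exact p = 0.0043, adjusted p = 0.0087), with overlap at tumor sample 4. The ratio of Slc25a22 to Slc25a18 went from 7.41 ± 0.61 to 4.56 ± 0.68 (exact p = 0.00216, adjusted p = 0.0058), and rests on at most 2 counts of Slc25a18 in any benign sample. These counts lie under the floor of 3 counts, so the size of this difference is uncertain and depends on the 2 added counts.

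The other 4 ratios did not pass. The log2 ratio of Slc25a5 to Slc25a4 was 0.44, 0.46 and 0.62 in benign samples 1, 2 and 5, -1.24, -0.91 and -2.14 in samples 3, 4 and 6, and 0.17 to 0.81 in tumors (difference of means 1.03, exact p = 0.065, adjusted p = 0.101). The difference was 0.06 without benign samples 3, 4 and 6. The ratio of Slc25a13 to Slc25a12 differed by 1.40 (exact p = 0.17, adjusted p = 0.2) with all samples and by -0.28 without benign samples 3, 4 and 6. Slc25a39 to Slc25a40 (0.51, exact p = 0.076, adjusted p = 0.101) and Slc25a24 to Slc25a23 (0.10, exact p = 0.73, adjusted p = 0.73) differed by less than the test could call.

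**Figure D4:**
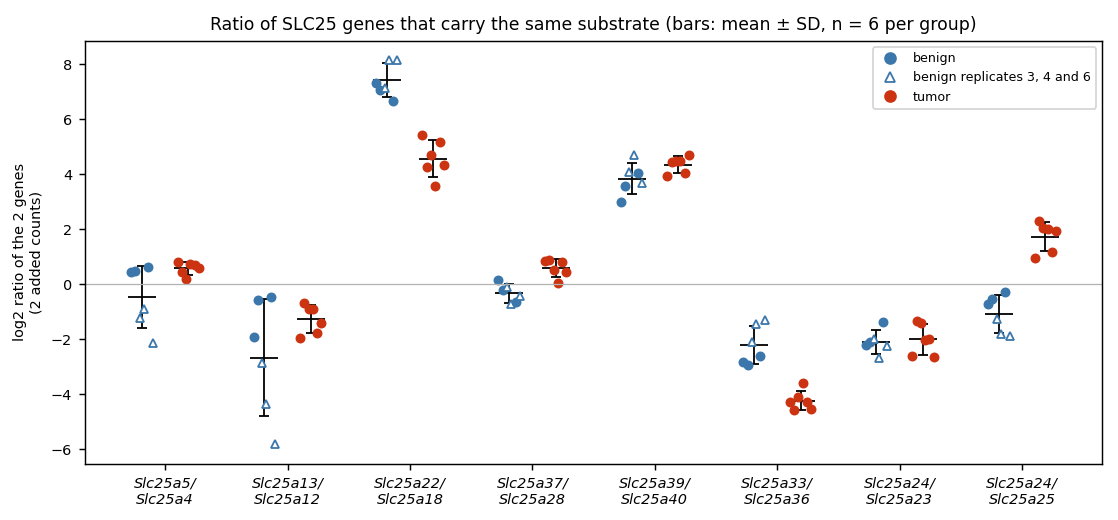
Log2 ratio of 2 SLC25 genes that carry the same substrate, per sample, with 2 added counts. Bars are the mean and SD of 6 samples, and triangles the benign samples 3, 4 and 6. Slc25a24 to Slc25a25 and Slc25a33 to Slc25a36 separate benign from tumor samples, while the ratios of Slc25a5 to Slc25a4 and Slc25a13 to Slc25a12 are spread within benign tissue by the triangles.

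Levels were compared between genes per kilobase of exon. In benign tissue Slc25a4 (295 ± 232 CPM per kilobase, n = 6), Slc25a5 (229.9 ± 43.3), Slc25a1 (186 ± 83.7) and Slc25a3 (102 ± 20.8) were the most abundant, and the first 3 did not differ beyond their spread. Slc25a10 (89.1 ± 8.20) and Slc25a39 (74.7 ± 25.8) followed. In tumors Slc25a5 led with 136 ± 40.3 CPM per kilobase. Slc25a39 (73.4 ± 4.27), Slc25a34 (65.2 ± 25.4), Slc25a4 (62.6 ± 11.9), Slc25a3 (62.3 ± 6.06) and Slc25a11 (59.4 ± 6.80) came next. Each of these overlapped its neighbour in this order, while the spread of Slc25a39 lay above those of Slc25a3 and Slc25a11. As a share of the summed SLC25 level per kilobase, Slc25a34 took 0.0141 to 0.332% in benign tissue and 5.83 to 11.8% in tumors. Slc25a1 took 9.49 to 17.8% and 3.28 to 5.01%, and Slc25a10 4.28 to 9.56% and 1.18 to 2.86%. Slc25a4 took 9.21 to 10.8% in benign samples 1, 2 and 5, 18.7 to 35.1% in samples 3, 4 and 6, and 7.48 to 9.24% in tumors.

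**Figure D5:**
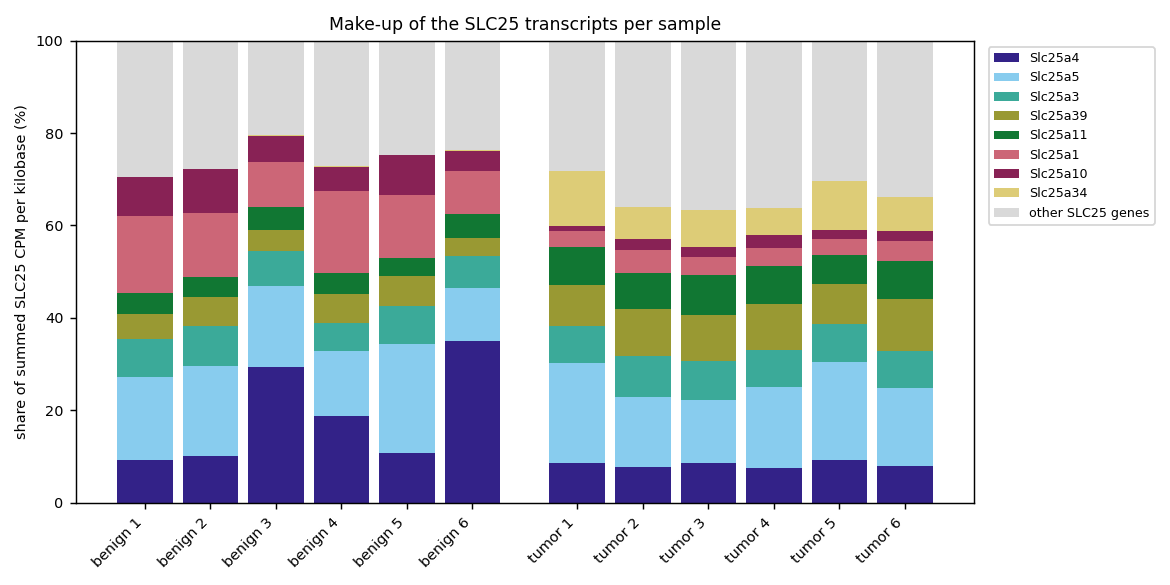
Share of each of 8 SLC25 genes, and of the others together, in the summed SLC25 level per kilobase of exon in each sample, in percent. Slc25a34 is hardly visible in benign tissue and takes 5.83 to 11.8% in tumors, the shares of Slc25a1 and Slc25a10 shrink, and Slc25a4 is widest in benign samples 3, 4 and 6.

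The enzymes and channels that work with these carriers were read from lists. Of the enzymes that turn exported citrate into fatty acids, Acly (-2.69 on the log2 scale), Acaca (-3.22) and Fasn (-4.17) fell. Me1, the cytosolic malic enzyme, was not called (-0.41, adjusted p = 0.16 by edgeR), so 3 of 4 fell, against 34.8% of all genes tested. Of the carnitine shuttle enzymes 3 of 5 fell, against 34.8% of all genes tested. Cpt1b, the muscle form of the outer membrane enzyme, was the lowest (-5.05), with Cpt2 and Crat at -2.58 and -2.39. Without benign samples 3, 4 and 6 these values were -1.83, -1.73 and -1.34. Of the malate-aspartate shuttle enzymes Mdh1 (-1.0) and Mdh2 (-1.32) fell, Got2 rose (0.65, adjusted p = 0.067), and Got1 was not called (-0.64, adjusted p = 0.31). Without benign samples 3, 4 and 6, Got1 and Got2 were higher by 1.25 and 1.30, Mdh1 was lower (-0.45, adjusted p = 0.022 by edgeR) and the call of Mdh2 was lost (-0.45, adjusted p = 0.15).

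Of 10 other carriers of the inner membrane 7 fell and 1 rose, against 34.8% and 28.2% of all genes. The calls of Sfxn1 (-0.26, adjusted p = 0.19 by edgeR) and Mcu (-0.33, adjusted p = 0.15) were lost without benign samples 3, 4 and 6. The pyruvate carrier subunits Mpc1 (-2.46) and Mpc2 (-1.52) fell, and Sfxn3, of the sideroflexins that carry serine, rose by 1.47 (adjusted p = 8.5e-06 by edgeR). The outer membrane channels Vdac1 (-0.90) and Vdac3 (-0.69) fell, calls that were lost without benign samples 3, 4 and 6 (0.04 and -0.02). The TIM22 machinery inserts SLC25 proteins into the inner membrane. Of 7 genes listed for the import of carriers by this route 3 fell, against 34.8% of all genes. These were Timm10 (-1.03), Tomm70a (-0.75) and Agk (-0.37), and Timm22 itself was not called (0.00, adjusted p = 0.98). Without benign samples 3, 4 and 6 the calls of Timm10 (-0.46, adjusted p = 0.107 by edgeR) and Agk (-0.28, adjusted p = 0.14) were lost. Tomm70a stayed lower in that fit (-0.59, adjusted p = 0.0015).

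Other cell types moved with the comparison too. All 8 adipocyte markers fell, among them Adipoq from 1106 ± 246 to 2.82 ± 2.22 CPM. All 6 endothelial markers fell, as did 5 of 6 macrophage markers. Of the 8 epithelial markers 6 rose and Krt19 fell, while 28.2% of all genes tested rose and 34.8% fell. Defining muscle markers were near 0 in tumors, with Ckm at 2.62 ± 4.57 CPM against 2929 ± 3574 CPM in benign tissue. Benign values of Ckm ran from 0.119 to 8572 CPM. It was not called without benign samples 3, 4 and 6 (-1.87, adjusted p = 0.33 by edgeR). The part of these cell types in the SLC25 changes was not tested.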

How the data were processed

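RNA was measured in 6 tumors and 6 benign samples, grouped by their labels. The authors enriched poly A RNA, prepared directional libraries, sequenced paired reads, trimmed them with Trim Galore, quantified them with Salmon against mm10 (per the submitters' processing notes) and deposited the estimated counts of each gene, rounded and unscaled. The annotation and the strand setting of the counting are not given in the sources used here. All columns were matched to a sample (0 columns left over).

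From the deposited counts, genes were kept by filterByExpr of edgeR 4.0.16 in R 4.3.3 (minimum count 10, minimum total 15), scaled by TMM and compared by the two-sided quasi-likelihood test, with the Benjamini-Hochberg adjusted p read at 0.1 as in the study. The common biological coefficient of variation was 0.351. CPM are scaled by TMM, and log2 ratios used 2 added counts. Per-kilobase levels divide by the union of exons in GENCODE M21 (GRCm38), which may differ from the authors' annotation. Marker scores used as covariates are the mean log2 CPM of each list. Counts of 3 or fewer were taken as the floor (0.411 CPM at the mean library size). The floor covers counting error only. Standard errors were worked back from the quasi-likelihood test, as the absolute log2 fold change divided by the square root of its F statistic. They include the spread between samples and are approximate, most of all where a group is near 0. Every replicate pair differed by more than sampling noise (smallest chi-square per degree of freedom 12.5). The tests were tried on simulated data.

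The members, substrate groups, gene lists and pairs were chosen with earlier results of these data known. Lowest, median and highest CPM are given for the members of the pairs, the carboxylate and metal carriers, Slc25a3 and Slc25a20. The same holds for the 5 largest rises and falls among called members. Members too low to test are given by their counts. The values of 1 member are not reported here, and it is kept in the counts. Other listed genes named are the carriers under other symbols and the highest and lowest of each list. Cpt2, Crat, the neighbours of Slc25a34 and the remaining named genes of other lists were chosen after their values were seen. Alternatives were DESeq2 1.42.0, other scalings and filters, the replicate number as a block, calls at 0.05 and each sample left out. Leaving out benign samples 3, 4 and 6 and the marker covariates were added after seeing the data.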

Additional observations from a re-analysis of the deposited data

Results flagged for a closer look

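Of 98 groups of 6 values (each tested member and each of the 8 pair ratios, in benign tissue and in tumors), 4 held a sample that lay apart from the other 5 by Dixon's criterion on the log2 scale, and chance gives about 1 in 20 groups. Slc25a1, the citrate carrier, stood at 767 CPM in benign sample 4, against 289.6 to 382 CPM in the other benign samples. Slc25a39, the glutathione carrier, stood at 346 CPM in the same sample, against 147 to 198 CPM. Benign sample 4 is also the sample with the highest share of brown fat markers (0.312%), and the part of that tissue in these values was not tested. In tumor sample 5, Slc25a27 stood at 25.4 CPM against 4.72 to 8.53 CPM, and Slc25a51, the NAD carrier, at 70.5 CPM against 118 to 140.1 CPM in the other tumors.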

How the results depend on the processing

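The 2 added fits changed the most calls. Without benign samples 3, 4 and 6, 5 calls were lost and 4 added, and the log2 fold change turned for Slc25a11 (0.53), Slc25a12 (1.20) and Slc25a39 (0.30). With skeletal muscle and brown fat scores as covariates, 8 members were lower in place of 20 and 7 were higher. The share of all genes called in that fit is not given here, so these counts have no background beside them. With the covariates the value turned for Slc25a11 (0.70), Slc25a12 (1.30), Slc25a13 (-0.18), Slc25a20 (0.37), Slc25a39 (0.59) and Slc25a51 (0.14). Slc25a16, Slc25a26, Slc25a27 and Slc25a47, called in neither fit, also changed sign in both. Of the 28 calls, 12 were kept with the covariates, among them Slc25a34, Slc25a36, Slc25a1 and Slc25a10. The 16 lost calls held Slc25a13, Slc25a15, Slc25a24 and Slc25a37 among the higher members. Among the lower members they held Slc25a3, Slc25a4, Slc25a5, Slc25a20, Slc25a32, Slc25a33, Slc25a35, Slc25a38, Slc25a40, Slc25a42, Slc25a46 and Slc25a51. The cause was not tested, and the covariates go along with the group, so this fit cannot fully separate tissue make-up from tumor. Leaving out single samples gave 7 to 9 members higher, 18 to 20 lower and 4 to 7 pairs of 8 called (7 without benign sample 5), 0.5 added counts gave 6 pairs, and DESeq2 gave 9 higher and 20 lower. At an adjusted p of 0.05, 6 were higher and 19 lower. With the replicate number as a block, 7 were higher and 19 lower, 4 pairs were called, and the calls of Slc25a15 (adjusted p = 0.13) and Slc25a38 (adjusted p = 0.14) were lost. The numbers do not pair the mice (correlation of deviations -0.124 to 0.103). Scaling moved the median of all genes by at most 0.09. Slc25a2, Slc25a21, Slc25a31 and Slc25a41, at 4 counts or fewer, are below what this depth can compare.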
